A study of Homo sapiens with 12 samples.

Results

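Gene expression was compared between HaCaT keratinocytes irradiated 42 times with blue light (the group blue_42) and cells of the same line irradiated 3 times (blue_3), across all genes. The comparison rests on 4 of the 12 libraries of the series, 2 libraries (a and b) in each group. The same comparison was made in the matched cultures without light (dark_42 against dark_3, again 2 libraries each), and each gene called in the irradiated cells was read beside its change in the dark. HaCaT is a spontaneously immortalized line of human skin keratinocytes, labelled wild-type here. Light of 408 nm from a diode source at 4.6 mW/cm2 was given in sessions of 50 J/cm2, with 3 sessions a week and for at most 14 weeks, while the cells stood in buffered saline. The submitters set this dose to kill a large share of the cells, returned the medium after each session and passaged the cells throughout. Thus blue_42 and blue_3 differ in the number of sessions and in the number of passages, and these cannot be told apart within the irradiated libraries. The dark groups carry the label of a control for 42 or 3 stimulations, and the labels say nothing more of how they were handled.

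Keratinocytes are the barrier cells of the epidermis and also sentinels of innate defence. They sense nucleic acids and microbial products, answer with interferons, cytokines and chemokines, and secrete antimicrobial peptides, protease inhibitors and complement. Interferons raise a set of antiviral genes through a promoter element bound by a complex of STAT and IRF factors, and interferon gamma raises MHC class II through the coactivator CIITA. In bulk RNA, fewer cells of a kind and less RNA per cell cannot be told apart.

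RNA was read from the 3' ends of transcripts, and levels are given as CPM, counts relative to library size after TMM scaling, always for library a and then b. A CPM from 3' tags is not divided by gene length. Total counts lay between 6220751 and 8183941 in the 8 libraries of these 4 groups, so that 3 counts correspond to 0.367 to 0.482 CPM in the irradiated ones. Keratinocyte markers such as KRT5 and KRT14 were abundant in every library, and the sum of the listed markers was 7905 and 7115 CPM in blue_3, 6808 and 6332 in blue_42, 7417 and 7625 in dark_3, and 5806 and 5204 in dark_42. Of 12 such markers, 1 was called higher under light and 4 lower in the dark, against 4.40% and 8.26% of all genes tested. The other cell types looked for were at trace levels in sum (leukocyte markers 3.87 to 6.43 CPM, fibroblast markers 6.97 to 9.07 CPM, with CD3D, NKG7 and POSTN at 0), apart from neuronal and glial lists. The share of counts from mitochondrial genes was 13.8% in both blue_3 libraries, 15.4% and 13.8% in blue_42, 14.5% and 13.7% in dark_3, and 12.6% and 12.4% in dark_42.

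After 42 sessions, antimicrobial, acute-phase, complement and MHC class II genes were higher than after 3 sessions, and the ligands BMP4 and BMP7, the calcium channel subunit CACNG4, the keratin KRT4 and the envelope protein IVL were lower. A gene is called here when its Benjamini-Hochberg adjusted p in edgeR's quasi-likelihood test was under 0.05. Of 12878 genes tested, 1002 were called, which is 7.78%. Of these, 566 were higher in blue_42 (4.40% of the genes tested) and 436 lower (3.39%). In all 1002, both libraries of one group lay above both of the other. How many of all genes tested had groups apart in this way was not counted. The median size of the called changes was 0.77 on the log2 scale, and 360 exceeded a 2-fold change (a log2 difference of 1). The number called rested on individual libraries: it was 253 without blue_42 b, 388 without blue_3 b, 418 without blue_3 a and 686 without blue_42 a.

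In the dark cultures more genes were called between the same stages, 2284 (17.7%), 1220 higher (9.47%) and 1064 lower (8.26%). Leaving out dark_3 a, dark_3 b or dark_42 b took this number to 768, 850 or 811. The irradiated and the dark comparison share no library. Of the 1002 genes called in the irradiated cells, 917 (91.5%) had the same sign in the dark, against 67.8% of all genes tested. The dark test called 614 of them in the same direction, which is 61.3% of the irradiated list and 26.9% of the dark list, and it called 8 in the opposite direction.

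Whether a gene moved alike with and without light was judged from a further contrast, the change in the irradiated cells minus the change in the dark. This difference was called for 56 genes (0.435% of those tested), 35 of them with the more positive change under light. Of the 1002 genes, 608 moved alike (called in the dark in the same direction, with no called difference), 6 moved in the same direction by a different amount, and 17 differed. The remaining 371 were not resolved, because the dark change was not called in the same direction and the difference was not called either. Among these 371, 301 had the same sign in the dark and 70 the opposite sign. Over all 1002 genes, which were chosen on the irradiated change, the median ratio of dark to irradiated log2 change was 0.843. The standard error of the difference is larger (median 0.20 on the log2 scale for genes at 10 CPM or more) than that of the irradiated change (0.14). The absence of a called difference therefore does not show that light and dark changes were equal. Without 1 library, between 2 and 191 differences were called: 3 without blue_3 b, 2 without blue_42 b, 4 without blue_42 a, 4 and 2 without dark_3 a and b, 12 without dark_42 b, 167 without blue_3 a and 191 without dark_42 a.

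**Figure D1:**
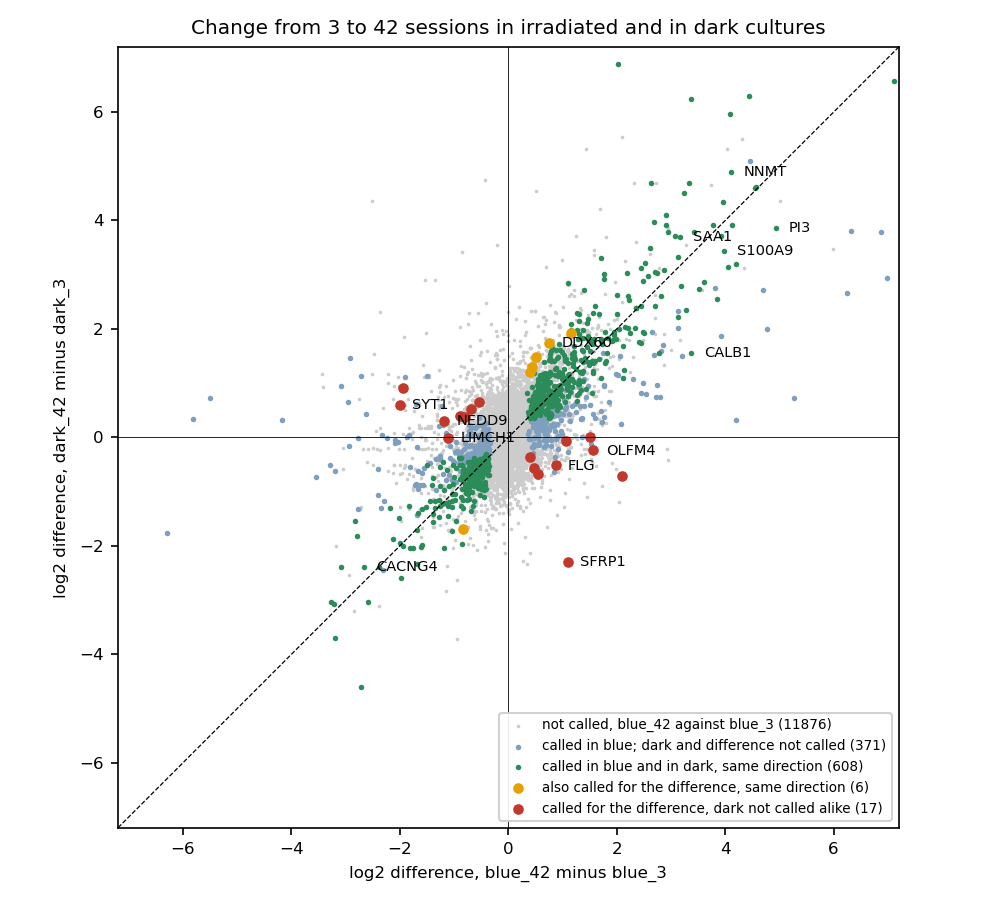
Log2 change from 3 to 42 sessions in irradiated cells (x axis) against the change between the matched dark groups (y axis); each point is 1 gene, grey where it was not called in the irradiated comparison and otherwise coloured by whether it moved alike, differed or was not resolved. Of the 1002 coloured genes 917 lie in the quadrants of equal sign, and SFRP1 lies far from the dashed line of equal change.

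PI3 had the largest of the 15 leading rises. It encodes elafin, a secreted inhibitor of neutrophil elastase with antimicrobial activity, and lies on GRCh38 at chromosome 20, 45174876 to 45176544, plus strand. It stood at 2.65 and 3.4 CPM in blue_3 and at 74.1 and 110.5 CPM in blue_42, with the 14-session libraries between them (20.1 and 36.3 CPM). The log2 difference was 4.94 ± 0.49 (standard error, as for all log2 differences below), edgeR adjusted p = 0.00087. In the dark it went from 2.06 and 1.15 to 20.2 and 26.4 CPM, a log2 difference of 3.86 ± 0.63 with adjusted p = 0.00504 in edgeR. All late libraries were thus above all early ones, with and without light.

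S100A8 and S100A9 encode the subunits of calprotectin, a metal-binding alarmin of stressed epidermis, and both lie in the epidermal gene cluster of chromosome 1. S100A9 rose from 29.4 and 25.7 to 319 and 557 CPM under light, 15.9-fold, and from 19 and 19.6 to 142 and 279 CPM in the dark. For S100A8 the irradiated libraries read 10.1 and 7.61 and then 96.3 and 155 CPM, 14.2-fold, and the dark ones 7.45 and 5.91 and then 38.4 and 51.5 CPM, where the dark change was not called in edgeR (adjusted p = 0.0518). The groups did not overlap for either subunit. The acute-phase apolipoprotein genes SAA1 and SAA2 also rose. SAA1 went from 28.9 and 29.5 to 201 and 326 CPM under light (log2 3.17 ± 0.33, edgeR adjusted p = 0.00106) and from 15.4 and 13.5 to 143 and 233 CPM in the dark. SAA2 rose 15.5-fold, to 94 and 173 CPM. The copies SAA1 and SAA2 are nearly identical, as are SERPINB4 and its neighbour SERPINB3, and how reads were split between them is uncertain. SERPINB4, the squamous cell carcinoma antigen and a protease inhibitor, stood at 0.795 and 1.46 CPM and then at 14.8 and 37.9 CPM.

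C3, the central complement component, rose from 33.5 and 26.2 to 160.5 and 233 CPM (log2 2.71 ± 0.40, edgeR adjusted p = 0.00895), and in the dark from 17.9 and 18.4 to 103 and 199 CPM. C1R, a protease of the first complement component, rose 6.62-fold to 11.6 and 18.1 CPM, and its partner C1S, at no more than 3 counts in each blue_3 library, reached 2.45 and 4.25 CPM. The irradiated and dark changes of C1R were 2.71 ± 0.32 and 2.42 ± 0.38 on the log2 scale.

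NNMT, which methylates nicotinamide, stood at 0.795 and 0.486 CPM in blue_3 and 6.97 and 16 CPM in blue_42 (log2 4.10 ± 0.65, edgeR adjusted p = 0.0026). In dark_3 it rested on 2 and 1 counts, so no fold is given for the dark, where it reached 4.35 and 10.3 CPM. CALB1, a calcium-buffering protein better known from neurons and kidney, rose from 1.32 and 1.46 to 15 and 14.1 CPM, 10.4-fold (edgeR adjusted p = 2.36e-07). In the dark CALB1 went from 2.7 and 3.46 to 8.2 and 10.01 CPM, and the difference between the changes, 1.82 ± 0.41, had an adjusted p of 0.0501 in edgeR, just at the threshold. STC1, a secreted glycoprotein hormone, rose 7.64-fold, and FRMD3, a FERM-domain protein, 9.78-fold. Without blue_3 a their log2 differences were 3.76 and 3.98, against 2.87 ± 0.42 and 3.24 ± 0.62 with all libraries, and without blue_42 b that of FRMD3 was 2.53. FRMD3 ended higher in the dark (35.6 and 58.3 CPM) than under light (12.7 and 28.5 CPM). NLRP7, a member of the NLR family, went from 0.53 and 0.648 to 6.97 and 19.3 CPM under light and to 1.79 and 9.88 CPM in the dark, where its dark_3 value rests on 1 count in each library. Without blue_42 b the log2 differences of SERPINB4, NLRP7 and NNMT were 3.73, 3.53 and 3.37, against 4.57 ± 0.94, 4.45 ± 1.07 and 4.10 ± 0.65.

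Of the 15 largest rises, 13 were also called in the dark (NLRP7 and S100A8 were not), where 9.47% of all genes tested were called higher. All 15 had dark groups that did not overlap, a share not counted over all genes tested. None had a called difference between light and dark. Library b lay above library a in 14 of these 15 genes in blue_42 and in all 15 in dark_42. Among all 566 rises it did so for 421 genes in blue_42 and 381 in dark_42, while among all genes tested it did so for 6380 and 6441 of 12878. Across genes, the deviations of same-lettered libraries had a correlation of 0.405 between blue_42 and dark_42, the latest groups, and its part in the results was not tested. SERPINB4, NLRP7, HLA-DRB1, S100A9 and S100A8 were not called without blue_3 a, blue_3 b or blue_42 b, and SERPINB4 and NLRP7 also not without dark_3 a or b. FRMD3 and C3 lost the call without blue_3 a or b, and SAA2 without blue_3 a. A fit of only the libraries compared also ended the calls of SERPINB4, NLRP7, SAA2 and FRMD3. In the fits without 1 library their adjusted p in edgeR reached at most 0.214, and PI3, NNMT, HLA-DRA, CALB1, SAA1, STC1 and C1R kept the call whichever library was left out.

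**Figure D2:**
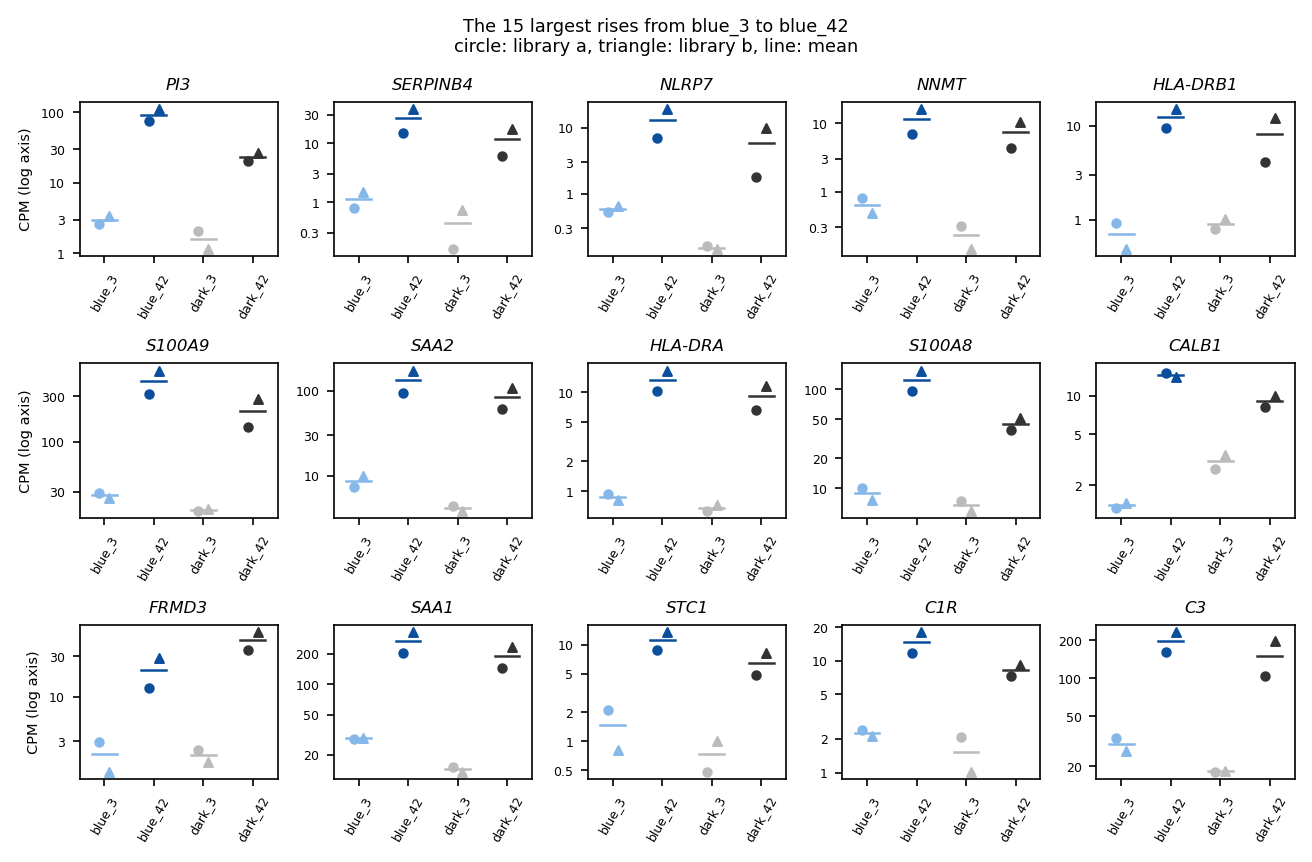
CPM of the 15 genes with the largest rise from blue_3 to blue_42 (y axes, log scale), 1 panel a gene, with each library a point (circle a, triangle b) and the group mean a line, for blue_3, blue_42, dark_3 and dark_42. In each panel both blue_42 points lie above both blue_3 points, as the choice of genes required, and both dark_42 points above both dark_3 points.

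CACNG4 had the largest of the 15 leading falls. This auxiliary subunit of calcium channels and glutamate receptors (chromosome 17, 66964910 to 67033398, plus strand) went from 31.9 and 25.1 CPM in blue_3 to 4.91 and 4.13 CPM in blue_42. Its log2 difference was -2.66 ± 0.24 (edgeR adjusted p = 8.55e-07), and in the dark it fell from 24.7 and 27.4 to 4.74 and 5.2 CPM. The 14-session libraries lay between, at 10.1 and 15.3 CPM. EPHA4, an ephrin receptor, fell 4.55-fold from 11.8 and 12.3 CPM. PRICKLE1, a planar cell polarity protein, fell 3.86-fold from 9.67 and 15.2 CPM. PTPRZ1, a receptor phosphatase, read 55.4 and 57.3 CPM in blue_3 and 22 and 9.71 CPM in blue_42.

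The secreted ligands BMP7 and BMP4 were both among the 15 leading falls. BMP7 went from 61.7 and 58.9 to 22 and 13.8 CPM under light (log2 -1.76 ± 0.20, edgeR adjusted p = 7.76e-05) and from 68.3 and 70.4 to 19.1 and 14.7 CPM in the dark. BMP4 went from 37.9 and 55.2 to 12.3 and 16.3 CPM (log2 -1.69 ± 0.23), and the dark change was -2.34 ± 0.25. Of 34 BMP and TGF-beta genes tested, 5 fell and none rose, where 3.39% of all genes tested fell and 4.40% rose. Beside both ligands these were ID4 (-0.84 ± 0.19), an inhibitor of helix-loop-helix factors, SKIL (-0.45 ± 0.12), a repressor of SMAD signalling, and SMAD6 (-0.45 ± 0.13), an inhibitory SMAD. The dark changes of ID4, SKIL and SMAD6 were not called, and the list's median change was 0.05, against -0.00 over all genes tested. In the dark 2 of the 34 rose and 3 fell, against 9.47% and 8.26% of all genes tested. ID4 lost its call without blue_3 a or either blue_42 library, SKIL without blue_3 b or either blue_42 library, and SMAD6 when any library of blue_3, blue_42 or dark_3 was left out.

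KRT4, a keratin of mucosal epithelia, was the most abundant of the leading falls, going from 573 and 531 to 186 and 178 CPM (log2 -1.60 ± 0.21, edgeR adjusted p = 0.000593). In the dark it went from 388 and 438 to 126 and 82.7 CPM. SPON2, a secreted matrix protein, fell from 51.4 and 41.6 to 13.2 and 13.2 CPM. CKB, the brain-type creatine kinase, fell from 59.7 and 48.7 to 21.8 and 23.1 CPM. HS3ST2, a heparan sulfate sulfotransferase, fell 2.44-fold, PALMD, palmdelphin, 2.63-fold, MTUS2, a microtubule-binding protein, 2.74-fold and ZNF608, a zinc finger protein, 2.85-fold. MT-TM, a mitochondrial transfer RNA (81.2 and 86 to 34.2 and 24.8 CPM), and RPL13AP25, a ribosomal protein pseudogene (42.1 and 32.9 to 14.5 and 15.5 CPM), also belong to these 15. Both are uncertain: the first adjoins other mitochondrial genes and the second resembles its parent gene, and the counting settings were not stated.

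Of the 15 largest falls, 14 were called in the same direction in the dark, RPL13AP25 being the exception. Of all genes tested, 8.26% were called lower in the dark. The dark groups did not overlap for any of the 15, a share not counted over all genes tested. None had a called difference. The mean of the 14-session libraries lay between blue_3 and blue_42 in all 15 falls, which were chosen for the gap between these groups. PTPRZ1 lost its call without blue_3 a or b and in a fit of only the libraries compared, and its log2 difference was -2.54 without blue_42 a. Likewise ZNF608 lost its call without blue_3 a or blue_42 b (edgeR adjusted p up to 0.114), while the other 13 kept it whichever library was left out.

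Of 13 neuronal marker genes tested, 9 fell in the irradiated comparison and 2 in the dark, against 3.39% and 8.26% of all genes tested. Their sum is set by NEFL, a neurofilament gene, which read 148 and 163 CPM in blue_3, 78.9 and 56.2 in blue_42, 146 and 146 in dark_3 and 72.1 and 41.6 in dark_42. SYT1, a synaptic vesicle protein, read 6.76 and 11.7 CPM in blue_3 against 2.45 and 2.06 in blue_42, 2.06 and 2.16 in dark_3 and 3.84 and 2.6 in dark_42. Of these groups blue_3 stood highest. After 14 sessions, in libraries that enter no contrast, SYT1 read 7.76 and 8.12 CPM with light. In the dark_14 libraries it read 23.5 and 17.8 CPM, above blue_3. The sum over the 15 listed neuronal genes was 236 and 265 CPM in blue_3, 131 and 108 in blue_42, 200 and 201 in dark_3, and 133 and 91.2 in dark_42. Its part in the falls of the irradiated comparison was not tested.

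**Figure D3:**
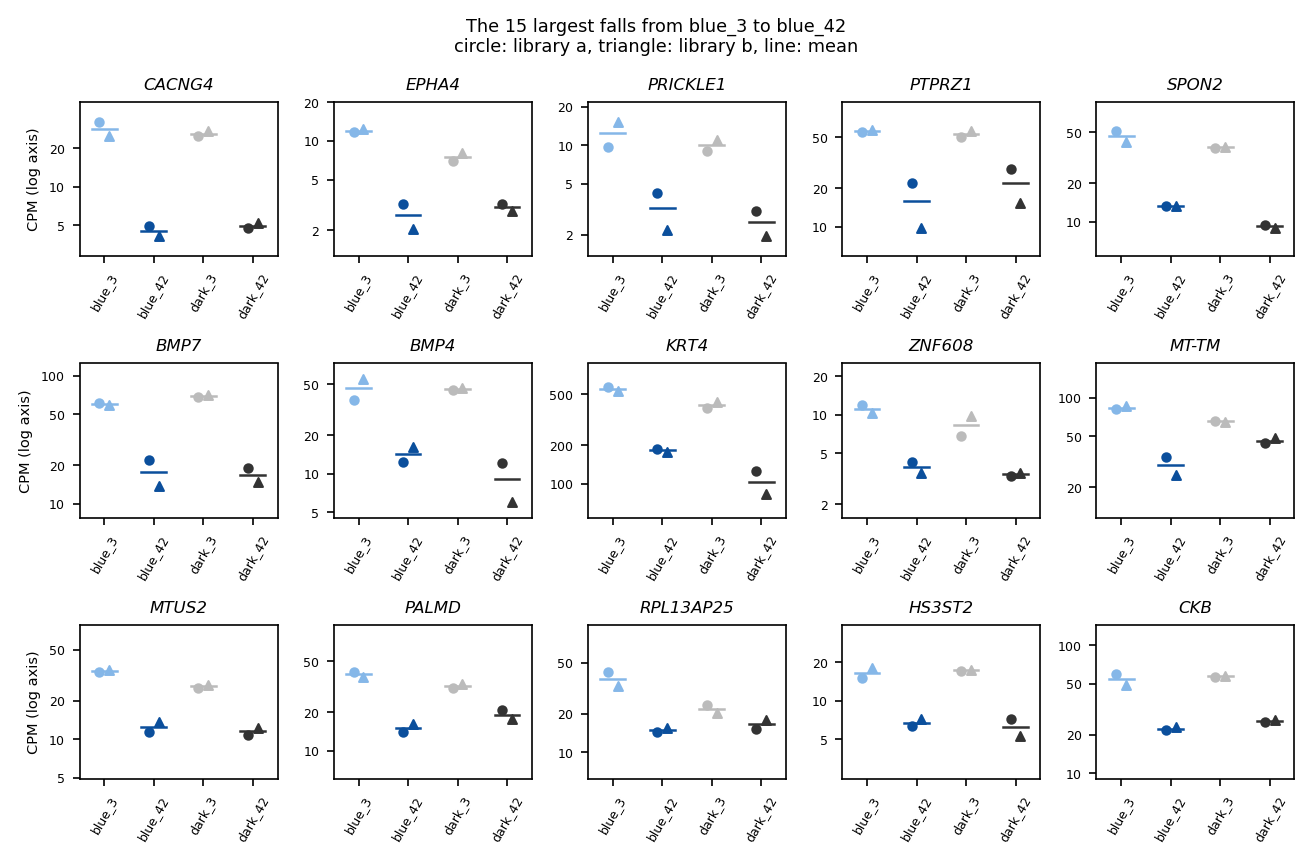
CPM of the 15 genes with the largest fall from blue_3 to blue_42 (y axes, log scale), 1 panel a gene, with each library a point (circle a, triangle b) and the group mean a line, for blue_3, blue_42, dark_3 and dark_42. Both blue_42 points lie below both blue_3 points in every panel, as the choice of genes required, and both dark_42 points below both dark_3 points.

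The change with light was called different from that without for 56 genes. Before adjustment, 1450 of the 12878 genes tested had p under 0.05 for this difference in edgeR. SFRP1, a secreted antagonist of Wnt ligands, had the most positive of the 56 called differences. It rose under light from 22.5 and 24.8 to 45.2 and 55.7 CPM (log2 1.10 ± 0.15, edgeR adjusted p = 7.17e-05). In the dark it fell from 16.3 and 18.6 to 3.46 and 3.64 CPM (log2 -2.29 ± 0.21, edgeR adjusted p = 4.47e-07). The difference of 3.39 ± 0.26 had an adjusted p of 2.52e-07, and it was called whichever library was left out. The 14-session libraries, at 11.8 and 15.3 CPM, lay below blue_3, so the irradiated level did not rise steadily with the number of sessions.

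OLFM4, olfactomedin 4, a secreted glycoprotein of mucosal and stem-like epithelial cells (chromosome 13, 53028759 to 53052057, plus strand), rose under light from 13.2 and 12.5 to 36.9 and 39.3 CPM. The dark_3 and dark_42 libraries read 14.9 and 14.4 and then 13.6 and 11.2 CPM. After 14 sessions it read 22.7 and 29.1 CPM with light and 27.5 and 22.2 CPM in the dark, where both libraries stood above those of dark_3 and dark_42. The difference between the changes from 3 to 42 sessions was 1.81 ± 0.24 (edgeR adjusted p = 0.00138), also called whichever library was left out. SFRP1 and OLFM4 were the only 2 of these 16 genes whose difference held in all 8 such fits. CALB2, calretinin, rose from 12.6 and 8.58 to 31 and 30.2 CPM under light, while the dark libraries read 21.6 and 19.6 and then 20.4 and 20.8 CPM. The blue_42 level thus stood above the other groups, but blue_3 had started below dark_3. EFNA1, ephrin A1, went from 55.6 and 39.5 to 100.2 and 101 CPM under light and from 53.6 and 60.1 to 61.7 and 46.7 CPM in the dark.

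FLG encodes filaggrin, which bundles keratin in the cornifying layer and whose breakdown moisturises it. It went from 30.3 and 38.7 to 64.4 and 61.3 CPM under light and from 57.1 and 66.1 to 51.2 and 34.9 CPM in the dark. The irradiated change was 0.87 ± 0.16 and the dark change -0.52 ± 0.16, both called, with a difference of 1.39 ± 0.22 (edgeR adjusted p = 0.0132). The blue_42 level lay within the range of dark_3, and blue_3 was lower than dark_3. NPM3, a nucleoplasmin, and SAMD10, a SAM-domain protein, rose slightly under light (0.48 ± 0.13 and 0.54 ± 0.17 on the log2 scale) and fell in the dark (-0.56 ± 0.13 and -0.67 ± 0.17). STMN3, a stathmin that binds tubulin, fell in both, less under light (-0.84 ± 0.13) than in the dark (-1.69 ± 0.13).

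In the opposite direction, NEDD9, an adaptor protein at focal adhesions, fell under light from 28.6 and 29 to 13.2 and 12 CPM, while the dark libraries read 13.2 and 14.7 and then 14.9 and 19.8 CPM. LIMCH1, an activator of non-muscle myosin, fell from 45.3 and 48.7 to 20.9 and 22.6 CPM, against 32 and 37.9 and then 33.2 and 36.3 CPM in the dark. In both, blue_3 stood above dark_3 and blue_42 below dark_42. ATF3, a stress-induced transcription factor, went from 30.9 and 32.7 to 19.6 and 23.8 CPM under light and from 21.1 and 18.6 to 31 and 31 CPM in the dark, so the order of the stages was reversed (difference -1.19 ± 0.22, edgeR adjusted p = 0.0193). H2BC7, a replication-type histone gene, also fell under light (-0.69 ± 0.17) and rose in the dark (0.52 ± 0.17). EPB41L4A, a FERM-domain protein, and SASH1, a scaffold protein, fell under light (-0.90 ± 0.16 and -0.80 ± 0.16), and their dark changes were not called.

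These calls depended on few libraries. Without 1 library the difference was called in at most 5 of 8 fits for FLG, 4 for EPB41L4A, 3 for CALB2, and 1 or 2 for the other 11. The irradiated change itself was lost for SAMD10 and ATF3 when any library of blue_3, blue_42 or dark_3 was left out, for FLG without blue_3 a, for EPB41L4A without blue_42 b, and for NPM3 without blue_3 b, blue_42 a or blue_42 b. For H2BC7 it was lost without blue_3 a, blue_3 b or blue_42 b. NPM3 then ranged from 0.30 to 0.69.

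A further 33 genes had a called difference with no called change under light, and all 33 were called in the dark, 25 lower and 8 higher. B3GALT5, a glycosyltransferase, read 2.12 and 2.59 CPM in blue_3 and 1.81 and 1.7 CPM in blue_42, whereas it rose in the dark from 2.38 and 2.3 to 12.9 and 13.4 CPM. Its difference was -2.89 ± 0.48 (edgeR adjusted p = 0.0132), called in 3 of the 8 fits that left out 1 library. LCP1, an actin-bundling protein chosen here after its values were seen, showed the reverse, with 1.32 and 1.3 CPM in blue_3, 5.94 and 5.46 in blue_42, 1.74 and 1.87 in dark_3 and 1.02 and 1.17 in dark_42.

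**Figure D4:**
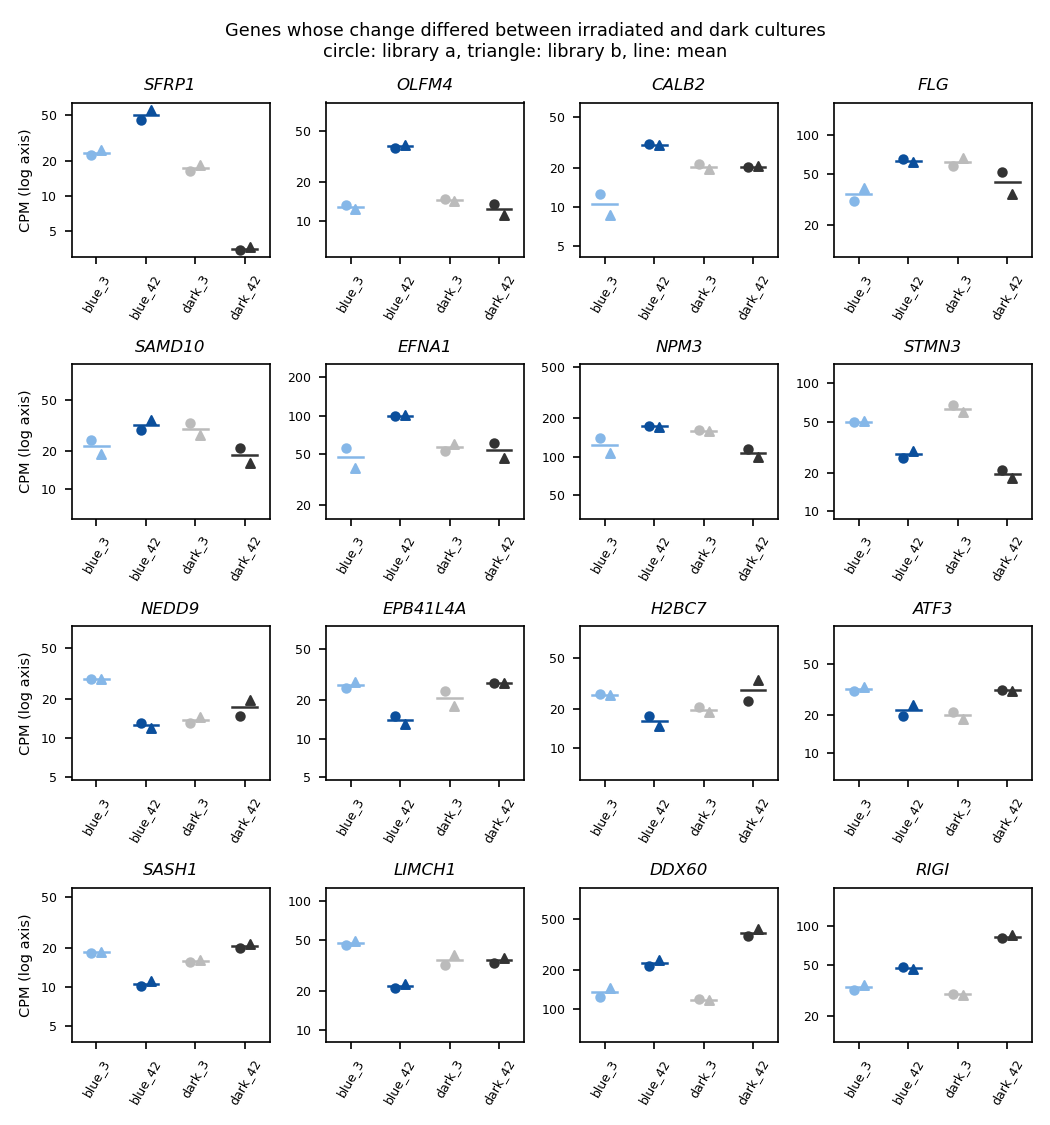
CPM (y axes, log scale) of 16 genes, the 8 most positive and 8 most negative called differences between the irradiated and the dark change within a restricted set. This set held genes also called under light, with at least 10 CPM in the higher irradiated group and irradiated groups not overlapping. Larger differences outside it, such as that of B3GALT5, are not shown. Each panel is 1 gene, with each library a point (circle a, triangle b) and the group mean a line, for blue_3, blue_42, dark_3 and dark_42. SFRP1 rises to 45.2 and 55.7 CPM in blue_42 and falls to 3.46 and 3.64 CPM in dark_42.

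Of 51 interferon-stimulated genes tested, 23 (against 4.40% of all genes tested) were called higher in blue_42 and none lower, with a median log2 change of 0.55, and 47 of the 51 changes were above 0. All 23 were also called higher in the dark, where 40 of 51 were called (against 9.47% of all genes tested) and the median was 1.03. The difference was called for 5 of the 51, all with the less positive change under light. These were OASL, DDX60, RIGI and IFIT2, which rose in both, and ISG15, a ubiquitin-like modifier named here for this count. ISG15 read 66.2 and 87.1 CPM in blue_3, 61.3 and 47.1 in blue_42, 59.5 and 58.8 in dark_3 and 128 and 89.5 in dark_42, and its irradiated change was not called.

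Among the called genes, OASL, which resembles the oligoadenylate synthetases, rose from 55.6 and 59.1 to 133 and 122 CPM under light and from 59.9 and 59.5 to 242 and 209 CPM in the dark (difference -0.76 ± 0.17, edgeR adjusted p = 0.0432). DDX60, a helicase that helps RNA sensing, rose from 123 and 146 to 215 and 239 CPM under light and from 118 and 116 to 369.8 and 414 CPM in the dark. RIGI, the RNA sensor itself, read 31.7 and 34.8 and then 48.2 and 46.4 CPM under light and 29.5 and 29.2 and then 80.05 and 84.5 CPM in the dark. In all 3, the early groups were close to each other, and dark_42 stood above blue_42. IFI27, a small mitochondrial protein, rose 4.15-fold from 3.18 and 1.78 CPM. CMPK2, a nucleotide kinase, rose 2.22-fold, OAS1, an oligoadenylate synthetase, 2.09-fold, RSAD2, viperin, 1.9-fold and SP110, a nuclear body protein, 2.18-fold. SP110 lost its call without blue_3 b or blue_42 b, and RIGI when any of the 4 irradiated libraries was left out. The difference of OASL was called in 1 of the 8 fits that left out 1 library.

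The promoters of these genes were searched for the core of the interferon-stimulated response element, the letters GAAANNGAA on either strand, from 250 bases before to 50 bases after the RefSeq start (GRCh38.p14). It was found in 29 of the 42 tested interferon-stimulated genes present in the table (69.0%) and in 13 of the 19 called ones present (68.4%). It was found in 8.99% of the 10135 tested genes present and in 9.86% of all 27305 genes of the table. Stretches of 5 called genes of this list are given, 5' to 3' on the gene's strand, with the match in capitals. They were taken in order of the rise under light, only from called genes that hold a match. The called genes SP110, OAS1, UBE2L6, SAMD9L, SP100 and RIGI held none. OASL, TRIM22, OAS2 and IFIT2, also called, had no promoter sequence to search. RSAD2 was passed over because its stretch overlaps that of CMPK2. Capitals that open with TTC are the same core read on the other strand. The stretch of IFI27 is chr14:94110605-94110685 (+), that of CMPK2 chr2:6865796-6865824 (-), of DDX60 chr4:168318761-168318841 (-), of MX1 chr21:41420562-41420590 (+) and of LGALS3BP chr17:78979937-78980017 (-).
IFI27: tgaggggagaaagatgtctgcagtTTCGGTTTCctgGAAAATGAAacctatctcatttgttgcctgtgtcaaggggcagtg
CMPK2: cccgcaacgcTTCGCTTTCgtttcccgct
DDX60: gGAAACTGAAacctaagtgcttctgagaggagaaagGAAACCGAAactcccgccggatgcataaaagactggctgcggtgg
MX1: cagaaatGAAACCGAAACTGAAttgtccg
LGALS3BP: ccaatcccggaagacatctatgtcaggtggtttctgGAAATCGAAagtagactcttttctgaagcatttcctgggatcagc
DDX60 and IFI27 hold 2 matches in the stretch shown, and in MX1 overlapping matches run together. Of the genes not yet given, MX1, a GTPase that blocks viruses, rose from 19.9 and 19.8 to 34.2 and 28.9 CPM and LGALS3BP, a galectin-binding glycoprotein, from 75.5 and 81.6 to 113 and 132 CPM. A match is a description of letters and not a measured binding site.

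Of 10 MHC class II genes tested, 5 rose and none fell under light, against 4.40% of all genes tested that rose. In the dark 9 rose, against 9.47%. The median of the fitted log2 changes was 2.55 under light and 3.13 in the dark, and it was 2.18 and 2.92 when genes without a count in a whole early group were set to a bound of 3 counts per library. HLA-DRA, the nearly invariant alpha chain of HLA-DR, went from 0.927 and 0.809 to 10.2 and 16.6 CPM (log2 3.91 ± 0.46, edgeR adjusted p = 7.17e-05), and in the dark from 0.634 and 0.72 to 6.66 and 11.6 CPM. CIITA, the coactivator that switches these genes on, went from 2.38 and 0.971 to 7.1 and 7.28 CPM under light and from 2.06 and 2.59 to 7.81 and 10.9 CPM in the dark. HLA-DRB1 rose from 0.927 and 0.486 to 9.56 and 15.1 CPM, HLA-DQB1 2.36-fold and HLA-DMA, which loads peptides, 3.01-fold. HLA genes share near-identical copies, and their split of reads is uncertain. Without blue_3 a the log2 difference of CIITA was 2.86, against 2.04 ± 0.33. HLA-DQB1 lost its call without blue_42 b, and HLA-DMA without either blue_3 library, blue_42 b or either dark_3 library. Leukocytes are the usual carriers of these genes, and the leukocyte marker sum was 4.50 and 3.89 CPM in blue_3 and 3.87 and 6.43 CPM in blue_42. In the dark it was 1.90 and 1.44 CPM after 3 sessions, then 4.23 and 6.63 CPM after 42, with CD3D and NKG7 at 0. Only CD14 and CD68 of this list passed the filter, and CD68, a lysosomal protein, was called higher in the dark (2.17 ± 0.59, edgeR adjusted p = 0.0142). The part of these markers in the result was not tested. Of 19 MHC class I genes, none was called under light (median 0.37). In the dark 11 rose (median 0.57), against 9.47% of all genes tested.

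Of 31 NF-kappaB, cytokine and chemokine genes tested, 14 rose and none fell under light (4.40% of all genes tested rose), with a median log2 change of 0.78. In the dark 15 rose and 2 fell, against 9.47% and 8.26% of all genes tested, with a median of 0.75. Of the 31 genes, 12 were called in the same direction in both. CCL2, a monocyte chemokine, rose from 31.9 and 15.5 to 90.00 and 131 CPM (log2 2.20 ± 0.39, edgeR adjusted p = 0.0185), and in the dark from 13.6 and 11.8 to 38.4 and 64.6 CPM. BIRC3, an inhibitor of apoptosis induced by NF-kappaB, rose from 68.1 and 79.3 to 173 and 258 CPM under light and from 55.6 and 46.4 to 199 and 301 CPM in the dark. IL1A, an epidermal alarm cytokine, rose 3.02-fold, CCL28, a mucosal chemokine, 3.86-fold and CXCL8, a neutrophil chemokine, 2.67-fold. CXCL3, another of them, reached 2.84 and 5.95 CPM from 0.132 and 0.809 CPM. Of the 6, only IL1A kept its call whichever library was left out. CCL2 lost it without blue_42 b and in a fit of only the libraries compared, BIRC3 without blue_3 a, CXCL3 without blue_3 a or blue_42 b, CCL28 without blue_3 b or blue_42 b, and CXCL8 without either blue_3 library or blue_42 b. The log2 difference of CXCL3 was 2.42 without blue_3 a and 4.87 without blue_3 b, against 3.27 ± 0.65, and that of CCL2 was 2.83 without blue_3 a, against 2.20 ± 0.39.

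Secreted mucosal defence and acute-phase genes had a median of 1.16, with 10 of 26 higher and 1 lower under light. In the dark 15 were higher and none lower, with a median of 1.39. Of all genes tested, 4.40% were higher and 3.39% lower under light, and 9.47% and 8.26% in the dark. PI3, SAA1, SAA2, C3, C1R and C1S of this list are described above. Of 15 wound keratins and alarmins, 4 rose and none fell under light (median 0.63), against 4.40% and 3.39% of all genes tested. In the dark 3 rose and 2 fell, against 9.47% and 8.26%, and 2 were called in the same direction in both. The dark median was 1.96, and 0.26 with genes lacking a count in a whole group set to their bound. The 4 that rose under light were S100A8, S100A9, S100A7A and KRT23. S100A7A and KRT23 had no count in either blue_3 library and stood in blue_42 at 1.29 and 1.82 CPM and at 1.42 and 3.52 CPM, respectively, so no fold is given. The calls of all 4 were lost without either blue_3 library or blue_42 b.

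Mitochondrially encoded transcripts had medians of opposite sign under light and in the dark, without a called difference. Of 15 tested, 4 rose and 1 fell under light, against 4.40% and 3.39% of all genes tested (median 0.32). In the dark none rose and 4 fell (median -0.28), against 9.47% and 8.26% of all genes tested. MT-ND4, a subunit of complex I, read 8164 and 7149 CPM in blue_3, 10779 and 11893 in blue_42, 8613 and 7489.7 in dark_3 and 7068 and 7604 in dark_42. The blue_42 libraries were the highest of these 8. MT-ND5, of the same complex, MT-ATP6, of the ATP synthase, and MT-CO1, of cytochrome oxidase, rose by 0.50 ± 0.12, 0.48 ± 0.14 and 0.44 ± 0.12 on the log2 scale. The difference from the dark of these 4 genes lay between 0.60 ± 0.19 and 0.70 ± 0.20, with edgeR adjusted p from 0.117 to 0.218. MT-RNR1, the small ribosomal RNA, fell in both (-0.77 ± 0.20 and -0.75 ± 0.20). MT-ND4 lost its call without blue_3 b or blue_42 b, MT-ND5 without blue_3 a or blue_42 b, MT-ATP6 and MT-CO1 when any library of blue_3, blue_42 or dark_3 was left out, and MT-RNR1 when any library but blue_42 a was left out and in a fit of only the libraries compared. Of 41 nuclear-encoded respiratory chain subunits none was called under light, with a median of -0.10. In the dark 3 of them rose and 6 fell, against 9.47% and 8.26% of all genes tested. The difference was called for 1 of the 41, with the more positive change under light.

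Differentiation genes went in different directions. Of 20 cornified envelope and barrier genes tested, 2 rose (FLG and CASP14) and 3 fell under light, against 4.40% and 3.39% of all genes tested. The median was -0.18. In the dark 3 rose and 7 fell, against 9.47% and 8.26% of all genes tested, with a median of -0.38. Under light IVL, involucrin, an early envelope protein, fell from 193 and 164 to 76.3 and 77.9 CPM (log2 -1.21 ± 0.15, edgeR adjusted p = 4.44e-05). In the dark it read 106 and 106 and then 68.8 and 86.2 CPM, so blue_3 stood above all other libraries of the 4 groups. KLK5, a protease of shedding, fell from 173 and 175 to 82.5 and 89.96 CPM, and SCEL, sciellin, from 99.1 and 113 to 48.7 and 39.6 CPM. Both fell in the dark too (-0.74 ± 0.11 and -0.90 ± 0.16 on the log2 scale). CASP14, a caspase of cornification, stood at 0.397 and 0.324 CPM in blue_3, at most 3 counts, and at 1.94 and 3.76 CPM in blue_42, and lost its call without either blue_3 library or blue_42 b.

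Basal keratins were not called under light. KRT5 read 1471 and 983 CPM in blue_3 and 1023 and 724 CPM in blue_42 (log2 -0.49 ± 0.25, edgeR adjusted p = 0.294), and KRT14 read 787 and 668 and then 643 and 678 CPM. In the dark both fell (-0.96 ± 0.25 and -0.39 ± 0.13). The suprabasal keratins KRT1 and KRT10 were not called in either (-0.22 ± 0.68 and -0.21 ± 0.19 under light). TP63, the lineage factor of basal keratinocytes, rose by 0.49 ± 0.14, and lost this call without blue_3 b or either library of blue_42 or dark_3. ITGA2, a collagen receptor subunit, rose from 248 and 270.4 to 358 and 391.5 CPM, and PLEC, a linker of hemidesmosomes, fell (-0.50 ± 0.13). ITGA2 lost its call without blue_3 a or blue_42 b, and PLEC without blue_3 b or blue_42 b.

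Junction and matrix genes changed in small numbers. CLDN1, the main epidermal claudin, rose from 202 and 174 to 311 and 331 CPM (log2 0.77 ± 0.11, edgeR adjusted p = 0.000204), and TJP1, a tight junction scaffold, fell from 189 and 189 to 115 and 122 CPM. Both moved in the same direction in the dark. Of 22 mesenchymal and contractile genes tested, 3 rose and 4 fell under light, against 4.40% and 3.39% of all genes tested (median -0.18). In the dark 6 rose and 6 fell, against 9.47% and 8.26% of all genes tested (median -0.13). Under light LOXL2, which crosslinks collagen, rose from 9.93 and 9.71 to 22.9 and 30.6 CPM, and FN1, fibronectin, from 39.6 and 42.3 to 86.5 and 126 CPM. TPM1, a tropomyosin, fell from 162 and 169.8 to 94.9 and 88.4 CPM, and THBS1, thrombospondin, from 179 and 189 to 112 and 76.4 CPM. PLAU, urokinase, rose 3.32-fold, to 69.7 and 93.2 CPM, and MMP13, a collagenase, fell to 13.8 and 14.3 CPM from 32.1 and 23.8 CPM. MMP1, another collagenase often followed in light-exposed skin, read 2.38 and 4.05 CPM in blue_3 and 3.74 and 5.1 CPM in blue_42 and was not called. FN1 and THBS1 lost their calls without either blue_3 library or blue_42 b, FN1 also without either dark_3 library, and MMP13 without blue_3 a. PLAU lost its call in a fit of only the libraries compared, and its log2 difference was 2.30 without blue_3 a, against 1.71 ± 0.27.

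Of 31 NRF2 targets and antioxidant enzymes tested, 1 rose and 1 fell, a share near the 7.78% of all genes tested, with a median of -0.05. AKR1C3, an aldo-keto reductase, went from 3.84 and 4.53 to 11.4 and 7.04 CPM, and OSGIN1, an oxidative stress gene, from 4.64 and 5.02 to 2.32 and 1.7 CPM. HMOX1, the haem oxygenase often used as a marker of oxidant exposure, stayed between 1.72 and 3.89 CPM in the irradiated libraries and was not called. AKR1C3 lost its call without either blue_3 library or blue_42 a, and OSGIN1 without either blue_3 library or blue_42 b. Of 19 heat shock genes, 4 fell and none rose (3.39% of all genes tested fell), with a median of -0.27. In the dark 11 fell (median -0.55), against 8.26% of all genes tested. HSPH1, a large chaperone, fell from 526 and 631 to 397 and 315 CPM, HSPB1, a small one, from 1713 and 1521 to 1158 and 1166 CPM, and DNAJB1, a co-chaperone, from 193 and 206 to 148 and 152 CPM. CRYAB, another small chaperone, fell from 1.19 and 1.78 CPM to 0 and 0.121 CPM, a trace level of at most 1 count. All 4 calls were lost without either blue_3 library or blue_42 b.

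Of 23 ATF4 and CHOP targets, 3 rose (STC2, CHAC1 and CTH) and 2 fell (ATF3 and PPP1R15A), against 4.40% and 3.39% of all genes tested. CHAC1, which degrades glutathione, read 6.62 and 7.29 CPM in blue_3, 17 and 12.6 in blue_42, 11.6 and 7.78 in dark_3 and 10.9 and 5.07 in dark_42, and was not resolved against the dark. Its call was lost when any of the 4 irradiated libraries was left out, that of STC2 without blue_3 b and that of PPP1R15A without blue_3 a or blue_42 a. Of 20 genes of the unfolded protein response, 1 rose and 3 fell under light, against 4.40% and 3.39% of all genes tested.

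BBC3, the pro-death protein PUMA, rose from 9.54 and 7.77 to 25.3 and 35.9 CPM (log2 1.81 ± 0.23, edgeR adjusted p = 7.23e-05), and in the dark from 9.04 and 5.47 to 18.6 and 24.1 CPM. FAS, a death receptor, rose from 4.5 and 4.05 to 10.3 and 11.3 CPM, and TNFRSF10B, a receptor of the ligand TRAIL, from 18.1 and 14.1 to 27.6 and 27.9 CPM. PMAIP1, the pro-death protein NOXA, and CCNG1, cyclin G1, rose by 0.62 ± 0.13 and 0.45 ± 0.14 on the log2 scale. These 5 genes were named because they were called under light and not as a count over a list. They were called in the same direction in the dark, where 9.47% of all genes tested were called higher. CDKN1A, the cell cycle inhibitor p21, was not called under light, at 65.4 and 62.2 CPM in blue_3 and 61.6 and 76.7 CPM in blue_42, and rose in the dark (0.70 ± 0.16, edgeR adjusted p = 0.00615). BBC3 and FAS kept their calls whichever library was left out, TNFRSF10B lost it without blue_3 b, PMAIP1 without blue_3 b or blue_42 b, and CCNG1 when any library of blue_3, blue_42 or dark_3 was left out.

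Of 32 genes of the G1/S phase and DNA replication, 3 fell and none rose (3.39% of all genes tested fell), with a median of -0.27 under light and -0.29 in the dark. UNG, uracil glycosylase, fell from 62.1 and 52 to 33.7 and 31.2 CPM, MCM5, of the replicative helicase, from 105 and 103 to 77.5 and 67 CPM, and MCM7, of the same complex, from 328 and 330.2 to 274 and 218 CPM. None of 30 G2/M and mitosis genes was called under light, and MKI67, the usual marker of cycling cells, read 867 and 1043 CPM in blue_3 and 985 and 972 CPM in blue_42. In the dark 4 of the G2/M and mitosis genes fell and none rose, where 8.26% and 9.47% of all genes tested did so. None of 32 genes of double-strand break and fork repair and none of 41 cytosolic ribosomal protein genes was called under light. In each of these lists 1 gene rose and 1 fell in the dark. POLB, the polymerase of base excision repair, rose from 26.2 and 25.3 to 38.9 and 48.6 CPM and also in the dark (1.17 ± 0.17). MCM5 and POLB lost their calls without either blue_3 library or blue_42 b, and MCM7 also without either dark_3 library.

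Of 29 hypoxia and glycolysis genes tested, 8 rose and 1 fell under light (4.40% and 3.39% of all genes tested), with a median of 0.24. In the dark 7 rose and 2 fell, against 9.47% and 8.26% of all genes tested, with a median of 0.20. Under light VEGFA, an angiogenic factor, rose from 23.8 and 29.6 to 50.7 and 46.7 CPM (log2 0.87 ± 0.14, edgeR adjusted p = 0.000596), and by 0.74 ± 0.14 in the dark. BNIP3L, a mitophagy receptor, rose from 37.9 and 35 to 60.04 and 65.8 CPM. Its relative BNIP3 reached 5.81 and 7.53 CPM from 2.52 and 1.3 CPM, while the dark change of 0.38 ± 0.38 was not called, nor was the difference. VEGFA and BNIP3L kept their calls whichever library was left out, and BNIP3 lost it without blue_3 b or blue_42 b. Without blue_3 a its log2 difference was 2.35, against 1.76 ± 0.35. SQSTM1, the autophagy adaptor p62, rose from 403 and 430.5 to 573 and 582 CPM and lost its call without blue_3 a or either blue_42 library.

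Of 30 Wnt pathway genes, 4 rose and 2 fell, against 4.40% and 3.39% of all genes tested. Beside SFRP1 the rises were in WNT4 (0.84 ± 0.23), AXIN1 (0.47 ± 0.14), a scaffold that brakes the pathway, and TCF7L2 (0.39 ± 0.12), its transcription factor, and the falls in the ligand WNT7B (-0.51 ± 0.15) and the inhibitor APCDD1 (-0.90 ± 0.26). Without 1 of several libraries the calls of WNT4, AXIN1, TCF7L2, WNT7B and APCDD1 were each lost. The difference from the dark was called for 2 of the 30, SFRP1 and PTK7, a Wnt co-receptor without a called change under light. Of 21 EGFR ligand and ERK feedback genes, 3 rose and none fell (4.40% of all genes tested rose), and all 3 also rose in the dark: SPRY1 (1.66 ± 0.35), DUSP5 (1.17 ± 0.25) and HBEGF (0.46 ± 0.13). SPRY1 and DUSP5 restrain the pathway and HBEGF is a ligand. SPRY1 lost its call without blue_3 b, DUSP5 without blue_3 a or blue_42 b, and HBEGF when any of the 4 irradiated libraries was left out. MYC, which drives growth, rose under light from 10.3 and 7.61 to 18.3 and 16 CPM and read 16.2 and 15.3 and then 14 and 13.1 CPM in the dark. Its difference of 1.13 ± 0.28 was not called (edgeR adjusted p = 0.081), and its irradiated call was lost without blue_3 b or blue_42 a.

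Of 16 light sensor and clock genes, 1 rose and 2 fell, against 4.40% and 3.39% of all genes tested, with a median of 0.01. OPN3, an opsin that senses blue light in skin cells, fell from 67.2 and 56.7 to 40.5 and 39.1 CPM (log2 -0.64 ± 0.12, edgeR adjusted p = 0.00233). The dark libraries fell alike, from 47.4 and 53.4 to 32.4 and 30.7 CPM. PER2, a clock repressor, fell slightly (-0.48 ± 0.14), and BHLHE41, another, rose (0.61 ± 0.13), and neither dark change was called. OPN3 lost its call without blue_3 a or blue_42 b, with an adjusted p of at most 0.0557. PER2 lost it when any library of blue_3, blue_42 or dark_3 was left out, and BHLHE41 without blue_3 b or blue_42 b.

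**Figure D5:**
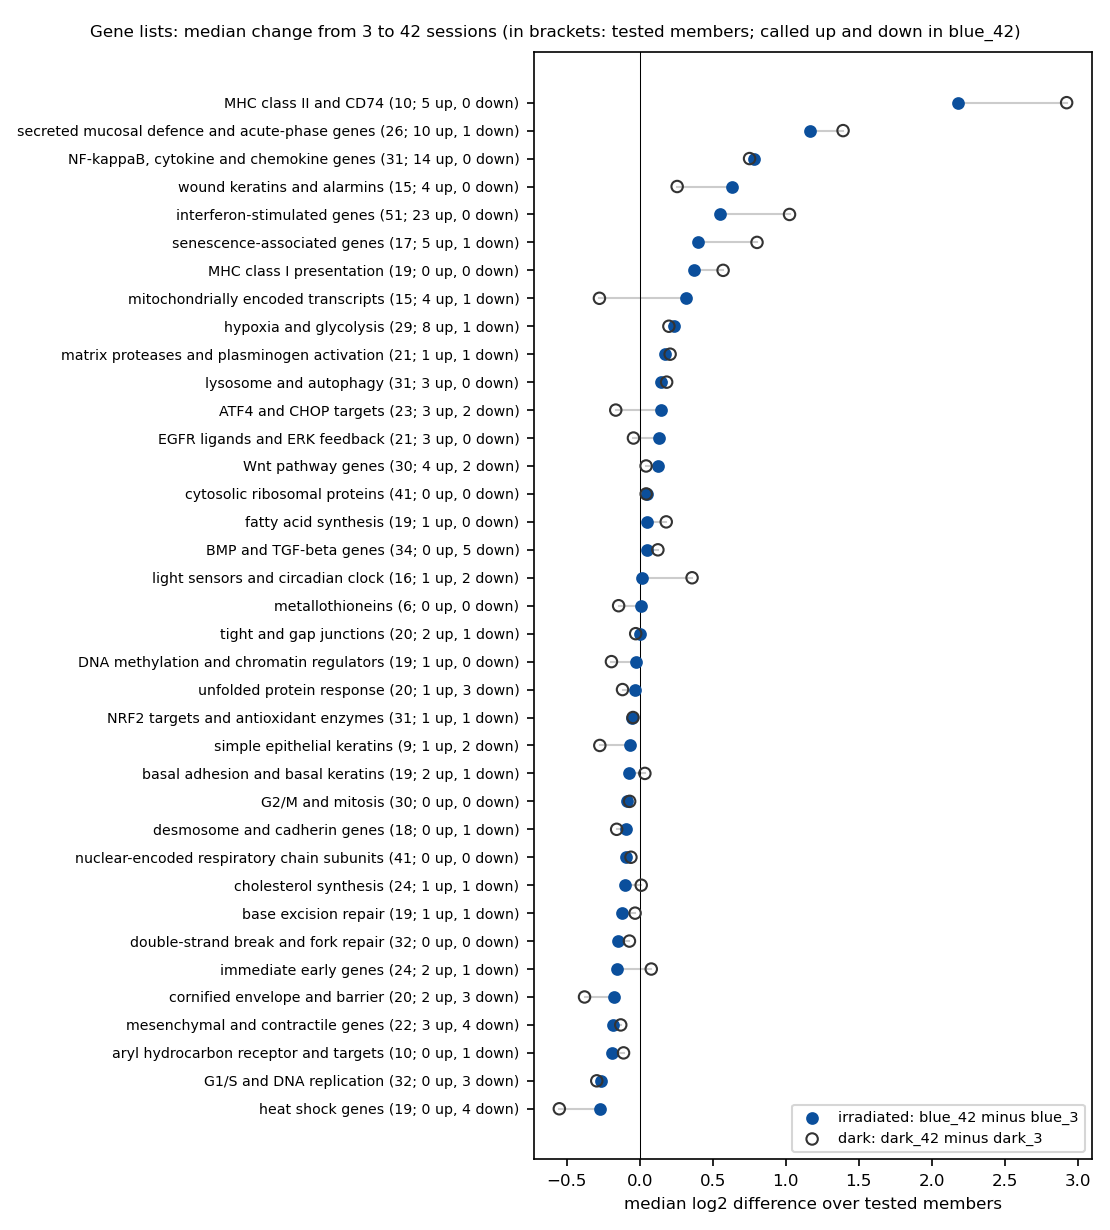
Median log2 change of gene lists between 3 and 42 sessions, under light and in the dark, with genes lacking a count in a whole group set to their bound; each row is a list, with the irradiated median as a filled and the dark median as an open circle. The MHC class II list lies farthest to the right, at 2.18 under light and 2.92 in the dark.

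The 14-session libraries entered the shared estimate of the spread but no contrast. Those with light had fewer counts (3517401 and 2073160) than the libraries compared, and the dark_14 libraries had 3561392 and 7950222. The mean of the 14-session libraries with light lay between blue_3 and blue_42 for 692 of the 1002 called genes (69.1%). The share over all genes tested was not counted, and the called genes were chosen for the gap between these groups. Among the leading rises the 14-session mean lay between for 12 of 15. The exceptions were HLA-DRB1, HLA-DRA and FRMD3, which stood higher after 14 sessions than after 42.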

How the data were processed

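The authors deposited raw counts per gene for 12 libraries; per the submitters' processing notes, reads were handled with STAR and featureCounts on build GRCh38. Per the labels' protocols, total RNA was taken with TRIzol and sequenced as 3' tags (QuantSeq FWD). For versions, annotation release, strand setting and molecular identifiers, nothing is stated. Gene positions come from GENCODE on the same build, which held all 12878 tested IDs.

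From the 45372 rows, edgeR 4.0.16 (R 4.3.3) kept 12878 genes by its expression filter at a minimum count of 10. TMM scaling and a quasi-likelihood model with a mean for each of the 6 groups (robust, 6 residual degrees of freedom) gave 3 contrasts: light, dark, and their difference. Tests are two-sided, adjusted by Benjamini-Hochberg over all genes, and called under 0.05. Medians of gene lists are descriptions, and 1 list is not reported here.

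Named genes are the 15 largest called changes each way (at least 10 CPM in the higher group, groups not overlapping), the 8 most positive and 8 most negative called differences among genes meeting the same conditions, up to 6 called members of each list by size, and 15 genes named whatever their values. The comparison and the lists were chosen with earlier results of these data known.

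Whether a and b are separate cultures is not given, so p-values measure the spread from library to library alone, which could be technical. Same-lettered libraries deviated together in blue_42 and dark_42 (correlation across genes 0.405) but not in the other pairs of groups (-0.0062 to 0.092, and 0.0074 for blue_3 with blue_42), so letters were not treated as pairs. Alternatives were other scalings, filters and libraries, a replicate block, DESeq2 1.42.0 and leaving out each library.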

Additional observations from a re-analysis of the deposited data

Results flagged for a closer look

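The change from 3 to 42 sessions differed between irradiated and dark cultures for 56 genes, by a test of the difference itself in edgeR. Among the genes described above, the difference (irradiated change minus dark change, log2) was 3.39 for SFRP1, 1.81 for OLFM4, 1.51 for CALB2, 1.39 for FLG, 1.21 for SAMD10, 1.14 for EFNA1, 1.04 for NPM3 and 0.85 for STMN3. It was -2.89 for B3GALT5, -1.50 for NEDD9, -1.30 for EPB41L4A, -1.21 for H2BC7, -1.19 for ATF3, -1.19 for SASH1, -1.10 for LIMCH1, -0.99 for DDX60, -0.98 for RIGI and -0.76 for OASL. The early groups already stood apart for several of them: NEDD9 read 28.6 and 29 CPM in blue_3 and 13.2 and 14.7 CPM in dark_3, and CALB2 read 12.6 and 8.58 and 21.6 and 19.6 CPM. For B3GALT5, OASL, DDX60 and RIGI the early groups were close and dark_42 stood apart. SFMBT2, a polycomb-related protein, and SYT1 also had called differences, at -2.87 and -2.61 on the log2 scale, and were singled out after their values were seen. SFMBT2 read 2.91 and 4.05 CPM in blue_3, 1.03 and 0.728 in blue_42, 3.01 and 2.45 in dark_3 and 5.12 and 5.2 in dark_42. SYT1 was highest in the dark_14 libraries, at 23.5 and 17.8 CPM, which enter no contrast.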

How the results depend on the processing

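Against 1002 genes called under light, RLE scaling gave 1013, DESeq2 615, no filter 1387, a mean of at least 5 CPM 780, only the libraries compared 1465, no 14-session libraries 1234 and non-robust estimation 1007. Leaving out 1 library gave 253 to 1219 genes under light, 768 to 2570 in the dark (2284 in all) and 2 to 191 differences (56 in all). For the difference, no filter gave 288, DESeq2 84 and a mean of at least 5 CPM 49. With the replicate block, 969 genes were called under light, 2288 in the dark and 92 differences, of which 72.8% were more positive under light, against 72.6% in DESeq2 and 62.5% as reported. The letters were not treated as pairs, so the block is a description only. Of 144 named genes called under light, 49 kept the call in every setting tried, 50 in all 8 fits without 1 library, and 0 changed sign. Of the genes described, DESeq2 did not call SAMD10, H2BC7, ATF3, RIGI, HLA-DMA, OSGIN1, AKR1C3, CTH, CRYAB, CCNG1, TP63, APCDD1, WNT4, WNT7B, AXIN1, TCF7L2, SMAD6, HBEGF and PER2. A fit of only the libraries compared did not call 8 named genes, given with the results. SERPINB4, NLRP7, CCNG1, AXIN1 and TCF7L2 lost their calls with no filter on low counts, SERPINB4, NLRP7, PTPRZ1 and MT-RNR1 without the 14-session libraries, SAMD10, CTH and HSPB1 with non-robust estimation, SAMD10, HSPB1 and PER2 with a mean of at least 5 CPM, and CCNG1 with the replicate block. Uncalled genes changed sign without 1 library: MKI67 ranged from -0.092 (blue_3 a left out) to 0.17, KRT1 from -0.86 to 0.20 (blue_42 a), CDKN1A from -0.052 (blue_42 b) to 0.25 and HMOX1 from -0.82 to 0.34 (blue_3 b). With 2 libraries a group, a group reduced to 1 is assumed to vary like the others. Genes below about 10 CPM carry wide errors at this depth.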
